A study of Homo sapiens with 24 samples.

Results

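HOX cluster genes were examined in RNA-seq read counts of 4 established cancer cell lines kept in normoxia or hypoxia. Members were the rows whose gene symbol consists of HOX, a cluster letter from A to D and a number. This rule found 39 of the 23106 gene symbols in the count tables: 11 in HOXA, 10 in HOXB, 9 in HOXC and 9 in HOXD. A549 (lung cancer, medium F12K), HCT-116 (colorectal cancer, McCoy's 5a), PC3 (prostate cancer, F12K) and T47D (breast cancer, DMEM) cells were cultured with fetal bovine serum at 21% oxygen (normoxia) or for 16 h at 0.5% oxygen (hypoxia). Polyadenylated RNA of 3 replicates per line and oxygen state gave 24 libraries in 8 groups. The labels do not say whether replicates were separate cultures, so p-values measure only the spread between these libraries. A549 and PC3 shared a medium. In every other comparison of lines, line and medium cannot be told apart. Each line is a single model of its tumor type.

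HOX genes encode homeodomain transcription factors that give cells their position along the head-to-tail axis of the embryo, and adult epithelia and the tumors derived from them keep part of this code. In human they lie in 4 clusters, which GRCh37 places on chromosome 7 (HOXA, chr7:27132612-27239710), chromosome 17 (HOXB, chr17:46605888-46806112), chromosome 12 (HOXC, chr12:54332615-54449814) and chromosome 2 (HOXD, chr2:176957449-177055635). Genes are numbered by paralog group up to 13. Low numbers are used in anterior and high numbers in posterior structures. Trithorax proteins such as MLL keep HOX genes active and Polycomb proteins keep them silent, while PBX and MEIS proteins bind DNA together with HOX proteins.

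Promoter sequences are given first for the members whose hypoxia results were the steadiest in A549 (HOXD11, HOXD10 and HOXD1) and for 2 posterior HOXA genes that moved in opposite directions (HOXA9 and HOXA13). Each is the 250 bases upstream of the RefSeq transcription start (GRCh38.p14), written 5′ to 3′ on the strand of the gene. Capitals mark the core hypoxia response element, ACGTG or GCGTG, on either strand, so that CACGT and CACGC are its reverse complements. In the palindrome CACGTG, which is also an E-box, matches on both strands overlap. HOXD11 spans chr2:176107030-176107279, HOXD10 chr2:176116528-176116777 and HOXD1 chr2:176188418-176188667, all on the plus strand. HOXA9 spans chr7:27165538-27165787 and HOXA13 chr7:27200092-27200341, both on the minus strand.
HOXD11: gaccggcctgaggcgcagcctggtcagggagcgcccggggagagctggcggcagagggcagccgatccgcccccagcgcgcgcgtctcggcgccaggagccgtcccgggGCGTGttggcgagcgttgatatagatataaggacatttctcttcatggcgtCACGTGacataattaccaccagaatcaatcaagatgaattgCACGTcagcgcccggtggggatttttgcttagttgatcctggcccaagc
HOXD10: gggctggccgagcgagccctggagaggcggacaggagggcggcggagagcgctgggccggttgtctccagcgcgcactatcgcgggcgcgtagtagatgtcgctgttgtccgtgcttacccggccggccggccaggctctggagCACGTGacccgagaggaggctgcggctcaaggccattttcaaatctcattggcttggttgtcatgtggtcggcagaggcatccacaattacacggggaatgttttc
HOXD1: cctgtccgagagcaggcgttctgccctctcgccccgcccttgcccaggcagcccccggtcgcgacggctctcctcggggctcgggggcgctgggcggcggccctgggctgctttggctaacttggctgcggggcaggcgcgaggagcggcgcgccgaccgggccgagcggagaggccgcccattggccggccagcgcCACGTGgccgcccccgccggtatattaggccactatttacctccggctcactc
HOXA9: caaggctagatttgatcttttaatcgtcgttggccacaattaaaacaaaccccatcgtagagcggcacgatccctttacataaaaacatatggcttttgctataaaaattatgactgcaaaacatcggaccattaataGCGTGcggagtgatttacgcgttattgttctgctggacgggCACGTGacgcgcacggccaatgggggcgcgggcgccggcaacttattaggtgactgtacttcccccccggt
HOXA13: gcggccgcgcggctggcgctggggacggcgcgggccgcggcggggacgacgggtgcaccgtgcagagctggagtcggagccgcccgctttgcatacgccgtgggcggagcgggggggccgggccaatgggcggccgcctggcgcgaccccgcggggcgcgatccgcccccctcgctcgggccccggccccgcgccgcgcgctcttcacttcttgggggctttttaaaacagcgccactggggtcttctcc
HOXD11 held 3 separate stretches with the element, HOXA9 held 2, HOXD10 and HOXD1 held 1 each, and HOXA13 held 0. RefSeq windows that also took in the first 50 transcribed bases were at hand for 20 of the 39 members, 27 windows in all, and 19 of these windows (70.4%) held at least 1 match. Of all 35116 windows of the same length, 48.4% did. The HOX windows were not all separate, since HOXC4 and HOXC5 had the same window and HOXA3 had several. Of the HOXB genes only HOXB1 had a window, so this share does not describe all 39 members. A match is a description of letters only.

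The libraries held 22698584 to 62850747 counts (median 56109796), of which HOX genes took 0.0155% to 0.0507%. No 2 libraries held identical counts. Levels are given in CPM, the share of a gene in the library's counts on a fixed scale, after TMM scaling, and 3 counts, taken as the detection floor of a library, correspond to 0.0436 to 0.132 CPM. Hypoxia targets from a list of 8 (such as CA9 and NDRG1) were called upregulated in A549, HCT-116 and T47D (8 of 8 each) and in PC3 (7 of 8). The 4 epithelial markers examined were above 1 CPM in all 24 libraries. Of 5 markers for each tissue of origin, those above 1 CPM in every library of the matching line numbered 0 in A549 (lung; NKX2-1 and the surfactant genes were at or near 0), 2 in HCT-116 (among them CDX2; CDX1 was at 0), 1 in PC3 (KLK2 and KLK3 were at 0) and 4 in T47D (among them ESR1, PGR and GATA3). Markers of other tissues also exceeded 1 CPM in every library of a line. PC3 had 4 of 5 breast luminal markers and 1 colon marker, and A549 had 2 colon, 2 prostate and 1 breast luminal. HCT-116 had 1 prostate and 1 breast luminal marker, and T47D had 1 colon and 2 prostate. Of 4 markers of blood, endothelial and stromal cells, only the collagen gene COL1A1 exceeded 1 CPM in every library of each line, and PTPRC and DCN stayed below 1 CPM. PECAM1 ranged from 0.704 to 2.81 CPM in PC3 and stayed below 1 CPM in the other lines.

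The first comparison asked which clusters each line expressed in normoxia. A gene was counted as expressed where its mean over the 3 normoxic libraries was at least 1 CPM. A549 expressed 24 of the 39 members (8 HOXA, 8 HOXB, 7 HOXC and 1 HOXD), HCT-116 also 24 (9 HOXA, 9 HOXB, 5 HOXC and 1 HOXD), PC3 20 (10 HOXA, 5 HOXB and 5 HOXC) and T47D 16 (2 HOXA, 6 HOXB and 8 HOXC). Thus PC3 and T47D expressed 0 HOXD genes and T47D had the smallest HOXA repertoire. With a minimum of 0.5 CPM the counts were 30 in A549, 28 in HCT-116, 28 in PC3 and 18 in T47D. PC3 then had 9 HOXB and 8 HOXC genes and A549 had 4 HOXD genes, so their smaller sets depended on the cut. PC3 and T47D still had 0 HOXD genes, and T47D still had the fewest HOXA genes (3). In bulk libraries, a lower level per cell and fewer expressing cells cannot be told apart. At 1 CPM, the set expressed in all 4 lines had 7 members: HOXA5, HOXB3, HOXB5, HOXB6, HOXC6, HOXC10 and HOXC13. By contrast, 10 members reached 1 CPM in no line. These were HOXB1, HOXC12 and every HOXD gene except HOXD8.

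Summed over the cluster, HOXB was the largest in A549 and HCT-116, HOXA in PC3 and HOXC in T47D. In A549, HOXB genes summed to 100.5 ± 11.4 CPM (SD, n = 3), against 47.7 ± 3.82 CPM for HOXC, 42.0 ± 3.82 CPM for HOXA and 7.61 ± 0.625 CPM for HOXD. HCT-116 libraries had the highest HOXA and HOXB sums, 175 ± 1.22 CPM and 229 ± 16.0 CPM, but a HOXC sum of only 18.7 ± 1.01 CPM. In PC3, HOXA and HOXB were close, at 154 ± 5.02 CPM and 134 ± 4.71 CPM. T47D libraries gave 244 ± 25.0 CPM for HOXC, which was 67.7% ± 2.82 of all HOX counts after scaling, and 3.91 ± 0.748 CPM for HOXA.

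**Figure D1:**
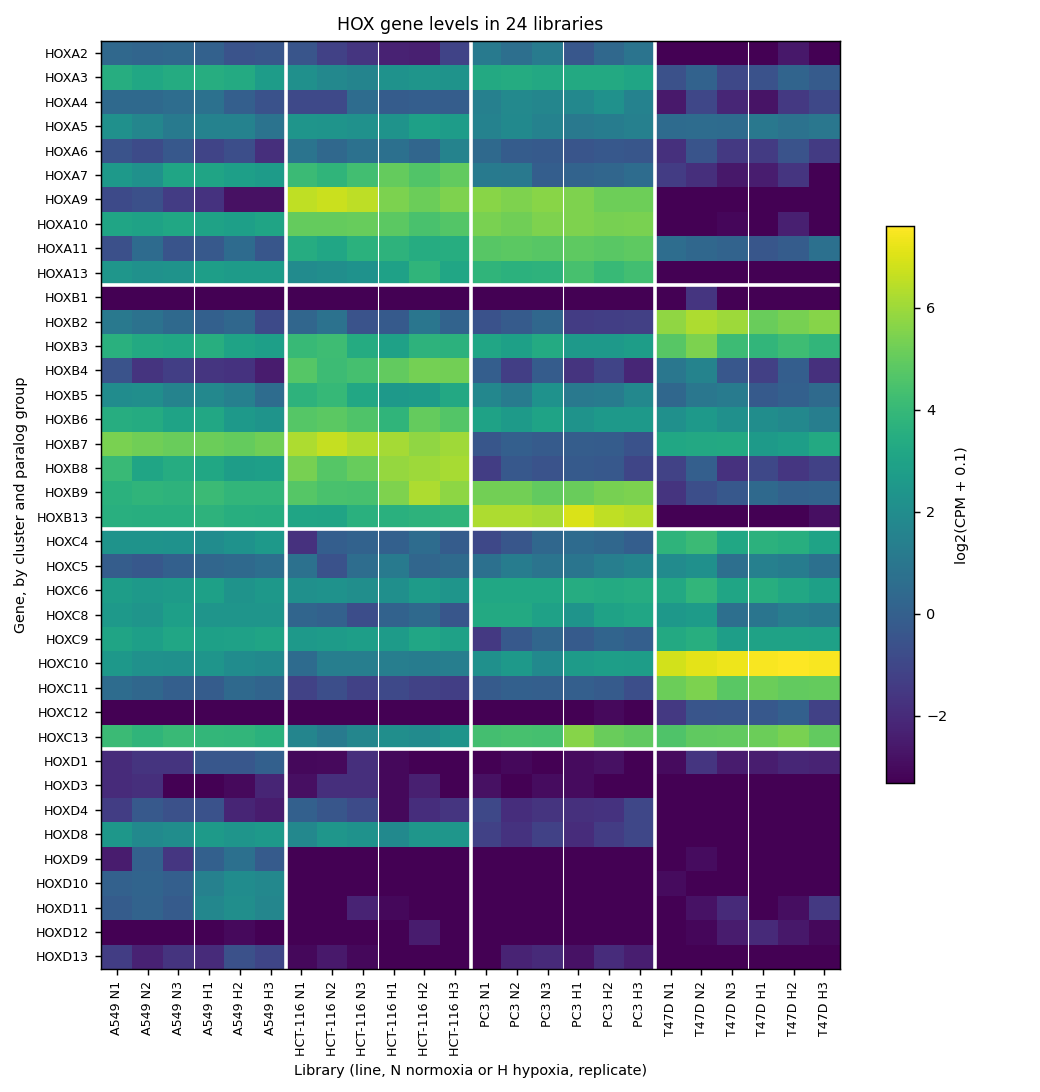
Level of each HOX gene shown (rows, by cluster and paralog group) in each library (columns; N normoxia, H hypoxia, replicates 1 to 3) as log2(CPM + 0.1). HOXA is mostly dark in T47D, HOXC10 is brightest in T47D, and outside A549 the HOXD rows are mostly dark except for HOXD8 and HOXD4.

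To compare genes within a line, levels were divided by the length of the main annotated transcript (RPKM). The leading HOXA gene was HOXA9, a posterior member known from blood stem cells and leukemia, in HCT-116 (47.2 ± 3.36 RPKM) and PC3 (23.5 ± 1.43 RPKM). HOXA3 led in A549 (3.36 ± 0.328 RPKM), level with HOXA10 (3.29 ± 0.248 RPKM) and HOXA7 (3.10 ± 0.957 RPKM) within 1 SD. HOXA5 led in T47D at only 0.795 ± 0.00469 RPKM. Thus the leading HOXA gene ranged from below 1 RPKM in T47D to above 40 RPKM in HCT-116.

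The leading HOXB gene differed between the lines in the same way. HOXB7 led in A549 (27.9 ± 3.04 RPKM) and HCT-116 (62.9 ± 9.74 RPKM). HOXB13, a posterior gene of prostate epithelium, led in PC3 (24.7 ± 1.27 RPKM). HOXB2, an anterior gene of the hindbrain, led in T47D (38.5 ± 6.44 RPKM).

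Among HOXC genes, HOXC13, a regulator of hair keratin genes, led in A549 (6.79 ± 0.695 RPKM) and PC3 (8.80 ± 0.213 RPKM), HOXC9 led in HCT-116 (4.29 ± 0.334 RPKM) and HOXC10 led in T47D (70.0 ± 10.6 RPKM). HOXC10, a posterior gene of the hindlimb and lumbar spinal cord, had the highest mean level per length of all members in any line, but it exceeded that of HOXB7 in HCT-116 by less than 1 SD. The leading HOXD gene in A549 and HCT-116 was HOXD8, at 1.65 ± 0.360 RPKM and 1.67 ± 0.374 RPKM.

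Differences between the lines were tested with edgeR's quasi-likelihood F test on the 12 normoxic libraries. After filtering on low counts, 34 members were tested and 34 differed between lines at an adjusted p below 0.05 (largest edgeR adjusted p = 0.0381, for HOXD1), against 93.5% of all genes tested. In the 12 hypoxic libraries the same test gave 34 of 35, against 93.1%. Both shares were close to the background, so the differences between lines are described by their size. T47D stood apart in pairwise tests (adjusted p below 0.05 and fold change above 1.2): 29 of 34 members (85.3%) differed from A549, against 66.6% of all genes, 30 (88.2%) from HCT-116, against 68.5%, and 29 (85.3%) from PC3, against 67.8%. Between the other lines, 22 members (64.7%) differed for A549 against HCT-116, 20 (58.8%) for A549 against PC3 and 24 (70.6%) for HCT-116 against PC3. All genes gave 64.9%, 60.0% and 65.6% for these comparisons.

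Several members were at 0 counts in every normoxic T47D library, so that folds are lower bounds against 3 counts over the group. HOXA9 was at least 5625-fold higher in HCT-116, at least 2787-fold higher in PC3 and at least 24-fold higher in A549 than in T47D. HOXB13 was at least 4384-fold higher in PC3, at least 672-fold higher in A549 and at least 567-fold higher in HCT-116. HOXA13 was at least 775-fold higher in PC3. HOXD8 was at least 251-fold higher in HCT-116 and at least 249.39-fold higher in A549. Conversely, some members were much lower in A549 than in T47D. The log2 difference, A549 minus T47D, was -4.85 ± 0.26 (SE) for HOXC10, -4.98 ± 0.26 (SE) for its neighbor HOXC11 and -5.30 ± 0.32 (SE) for HOXB2. HOXC12, which was at 0 in the normoxic libraries of the other lines, was at 0.255, 0.639 and 0.669 CPM in normoxic T47D and below 1 CPM in hypoxia as well.

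The second comparison asked which HOX genes 16 h of hypoxia changed in each line. A gene was called where the edgeR quasi-likelihood test, fitted across all genes of the line, gave an adjusted p below 0.05 and a fold change above 1.2. Over the 4 lines, 16 of the 39 members were called at least once: 7 upregulated only, 7 downregulated only and 2 (HOXB4 and HOXB8) upregulated in 1 line and downregulated in another. No matching share of all genes was counted over the 4 lines, so these totals have no background beside them. HOXB1, HOXD3 and HOXD12 had too few counts to be tested in any line, and 20 members were tested in at least 1 line and called in none. In each line the share of members called upregulated was below that of all genes, and the same held for the share called downregulated outside T47D.

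**Figure D2:**
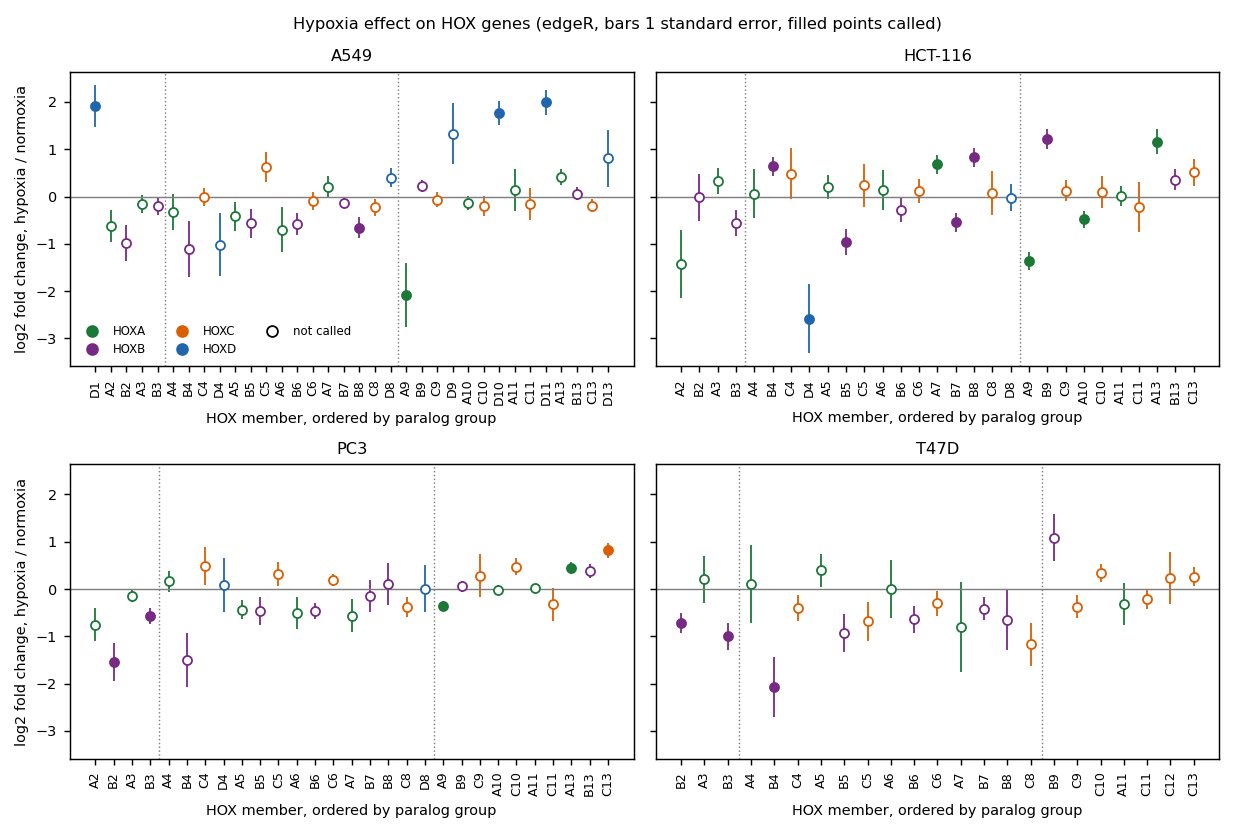
log2 fold change (hypoxia over normoxia, y axis) of each HOX gene shown in each line, with bars of 1 standard error from edgeR. Filled points passed both thresholds, genes are ordered by paralog group, dotted lines part groups 1 to 3, 4 to 8 and 9 to 13, and the filled points above 1.5 are HOXD1, HOXD10 and HOXD11 in A549.

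In A549, 3 of 35 members tested were upregulated (8.57%, against 17.6% of all genes) and 2 were downregulated (5.71%, against 17.8%). All upregulated members lay in HOXD, the cluster with the lowest sum in this line. HOXD10, a posterior gene of limb and hindlimb motor neurons (chr2:176973518-176984665 in GRCh37), was at 0.964, 1.04 and 0.903 CPM in normoxia and 2.71, 3.84 and 3.34 CPM in hypoxia. The groups were well apart, and the log2 fold change was 1.76 ± 0.26 (SE), edgeR adjusted p = 4.91e-04. Its neighbor HOXD11, which patterns forearm and kidney (chr2:176968944-176974482), went from 0.806, 1.02 and 0.777 CPM to 3.18, 4.14 and 3.14 CPM. Again every hypoxic library exceeded every normoxic one, and the log2 fold change was 1.996 ± 0.26 (SE), edgeR adjusted p = 2.65e-04.

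HOXD1, at the anterior end of the cluster (chr2:177053396-177055635), was low, at 0.157, 0.215 and 0.217 CPM in normoxia and 0.670, 0.680 and 0.904 CPM in hypoxia, with no overlap. Its log2 fold change was 1.91 ± 0.44 (SE), edgeR adjusted p = 0.00590. The other tested HOXD genes were not called. HOXD9, between HOXD8 and HOXD10, ranged from 0.0787, 0.949 and 0.235 CPM to 0.928, 1.52 and 0.784 CPM, with overlap and an edgeR adjusted p of 0.129 (0.0209 with the replicate block and 0.00928 without normoxia replicate 2). HOXD8, the leading HOXD gene, was at 5.37, 3.56 and 4.01 CPM in normoxia and 6.15, 5.12 and 5.77 CPM in hypoxia, with overlap (edgeR adjusted p = 0.147). The summed level of HOXD rose from 8.12, 7.80 and 6.92 CPM to 14.4, 16.0 and 14.51 CPM, a ratio of means of 1.97, while the sums of HOXA, HOXB and HOXC overlapped between the states.

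The downregulated members in A549 were HOXA9 and HOXB8. HOXA9 was low, at 0.452, 0.537 and 0.289 CPM in normoxia and 0.206, 0.0400 and 0.0402 CPM in hypoxia (log2 fold change -2.08 ± 0.67 (SE), edgeR adjusted p = 0.0297). The hypoxic libraries held 12, 2 and 2 counts, so only replicate 1 was above the floor. HOXB8, a trunk-level gene, was at 16.7, 8.57 and 10.6 CPM and 8.99, 6.62 and 7.18 CPM, overlapping between the states (log2 fold change -0.66 ± 0.23 (SE), edgeR adjusted p = 0.0393). Libraries of the oxygen states did not overlap for 9 of 35 members (25.7%), against 47.9% of all genes. Downregulated calls fell to 0 without hypoxia replicate 2, hypoxia replicate 3 or normoxia replicate 1 and to 1 without normoxia replicate 2, and rose to 4 without hypoxia replicate 1, whereas the HOXD calls held without any single library. In 1 fit of all 24 libraries HOXD10 remained called (edgeR adjusted p = 0.0230), but HOXD1 (0.0551), HOXD11 (0.0741) and HOXB8 (0.146) did not. In the annotation, 18.2% of HOXD10 and 21.4% of HOXD11 exon bases are shared between these genes and 60.1% of HOXD1 exon bases lie opposite to HAGLR or another antisense gene, and whether the counting used strand is not given in the sources used here.

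**Figure D3:**
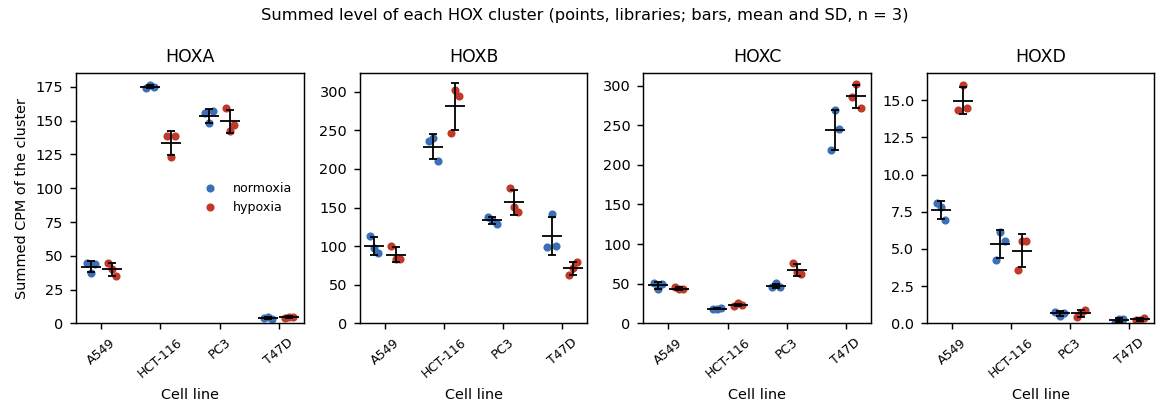
Summed CPM of each HOX cluster (y axis, from 0, a different scale per panel) in each library by line; points are libraries, bars the mean and SD (n = 3). The HOXD sum in A549 is near 7.6 in normoxia and 15.0 in hypoxia, the HOXA sum falls and the HOXB sum rises in HCT-116, and the HOXB sum falls in T47D.

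In HCT-116, hypoxia changed members in both directions, with 5 of 30 upregulated (16.7%, against 23.3% of all genes) and 5 downregulated (16.7%, against 27.0%). HOXA9 was the most abundant HOXA gene and was 2.58-fold lower in hypoxia. It was at 94.4, 105 and 92.3 CPM in normoxia and 43.0, 35.1 and 44.8 CPM in hypoxia (log2 fold change -1.37 ± 0.19 (SE), edgeR adjusted p = 1.87e-04; chr7:27202057-27214799). The groups were far apart. HOXA10, a posterior gene of uterus and limb, lies next to it and went from 32.7, 32.7 and 33.1 CPM to 29.1, 22.1 and 25.2 CPM (log2 fold change -0.49 ± 0.19 (SE), edgeR adjusted p = 0.0427).

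Other HOXA genes rose in the same libraries. HOXA13, the posterior end of the cluster and a gene of hindgut and limb (chr7:27233122-27239710), was at 3.81, 4.16 and 4.63 CPM in normoxia and 7.47, 14.2 and 8.82 CPM in hypoxia (log2 fold change 1.15 ± 0.27 (SE), edgeR adjusted p = 0.00309). HOXA7, a trunk-level gene, went from 17.6, 14.1 and 19.3 CPM to 32.6, 24.7 and 31.2 CPM (log2 fold change 0.68 ± 0.20 (SE), edgeR adjusted p = 0.0127). For both, hypoxic libraries were all higher. Antisense HOXA-AS3 exons lie opposite to 62.5% of HOXA7 exon bases. The HOXA sum fell from 174, 176 and 175 CPM to 139, 123 and 138 CPM. HOXA9 alone fell by more than this sum did, from a mean of 97.3 CPM to 41.0 CPM. Of the 11 HOXA members tested, 7 had a positive log2 fold change.

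HOXB members of HCT-116 were split as well. HOXB9, a gene of the thoracic segments (chr17:46698518-46703720), rose 2.33-fold, from 26.1, 21.7 and 21.2 CPM to 45.2, 76.4 and 54.1 CPM (log2 fold change 1.22 ± 0.22 (SE), edgeR adjusted p = 6.50e-04). HOXB8 went from 40.8, 26.6 and 33.8 CPM to 58.6, 64.2 and 72.8 CPM (log2 fold change 0.83 ± 0.21 (SE), edgeR adjusted p = 0.00493). HOXB4, known for expanding blood stem cells, went from 26.1, 17.9 and 20.8 CPM to 31.8, 39.5 and 38.9 CPM (log2 fold change 0.64 ± 0.20 (SE), edgeR adjusted p = 0.0182). In all 3 the hypoxic libraries lay above the normoxic ones.

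Their neighbors HOXB5 and HOXB7 were downregulated. HOXB5, a gene of gut and lung mesenchyme and enteric neurons, was at 13.3, 15.9 and 9.22 CPM and 5.99, 6.34 and 9.44 CPM, with slight overlap (log2 fold change -0.96 ± 0.28 (SE), edgeR adjusted p = 0.0114). HOXB7, the leading HOXB gene, was at 77.3, 101.1 and 79.0 CPM and 70.5, 55.7 and 66.2 CPM (log2 fold change -0.54 ± 0.20 (SE), edgeR adjusted p = 0.0374). HOXD4, a low hindbrain-level gene, was at 0.917, 0.648 and 0.463 CPM in normoxia and 0.0173, 0.172 and 0.221 CPM in hypoxia, where replicate 1 held 1 count (log2 fold change -2.58 ± 0.73 (SE), edgeR adjusted p = 0.00997). The HOXB sum rose from 236, 240.4 and 211 CPM to 246, 302 and 295 CPM and the HOXC sum from 17.8, 18.3 and 19.8 CPM to 21.5, 25.0 and 23.1 CPM, both without overlap, although 0 of 8 HOXC members were called.

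The states did not overlap for 12 of 30 members (40%), against 60.4% of all genes. Calls of HOXA9, HOXA13, HOXB8 and HOXB9 held in each alternative run. HOXB7 was lost without any 1 of the 6 libraries (edgeR adjusted p of 0.0513 to 0.166) and HOXA10 without 5 of 6 (0.0481 to 0.204 over all 6), HOXB4 without hypoxia replicate 3 (0.0590), HOXB5 without normoxia replicate 2 (0.0702) and HOXD4 without normoxia replicate 1 (0.0522). The count of downregulated members was then 3 without hypoxia replicate 2 or 3 and 2 without normoxia replicate 1 or 2. HOXA10 was also lost with DESeq2, with other scalings and with other count filters, HOXB7 with scaling to total counts, with no count filter and with a correction for GC content and length, HOXB4 with that correction and in 1 fit of all 24 libraries, and HOXA7 in that fit.

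**Figure D4:**
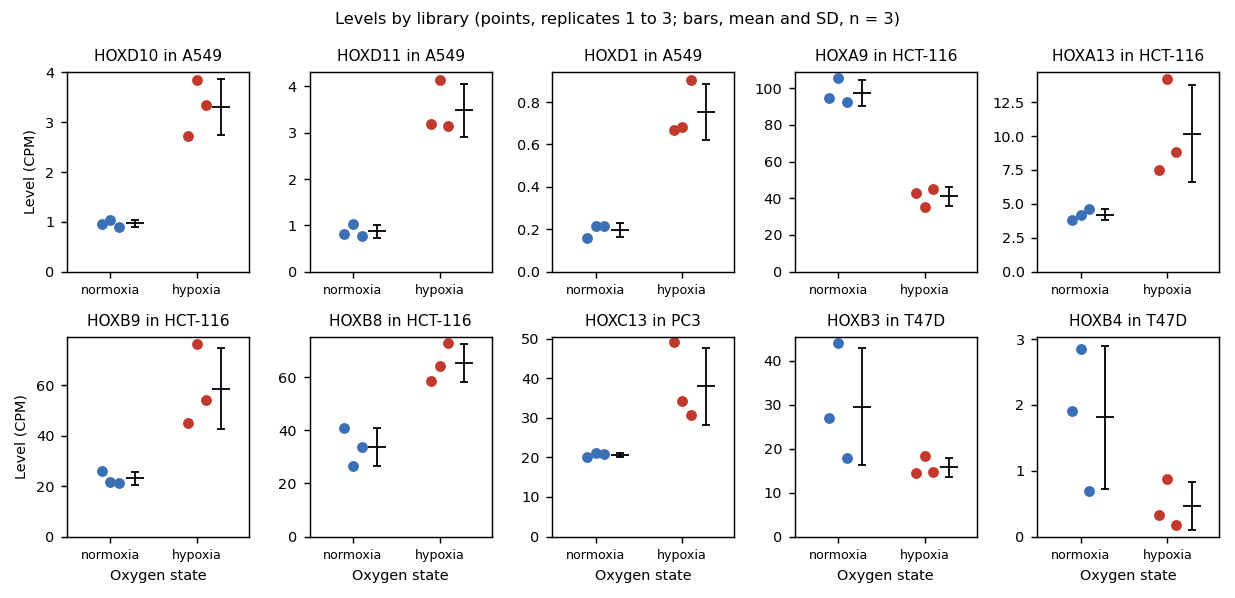
Level in CPM (y axis, from 0, own scale per panel) of 10 members in the line named above each panel; points are replicates 1 to 3 of normoxia (blue) and hypoxia (red), bars the mean and SD (n = 3). HOXD10, HOXD11 and HOXD1 in A549, HOXA13, HOXB8 and HOXB9 in HCT-116 and HOXC13 in PC3 are higher in every hypoxic library, HOXA9 in HCT-116 is lower in every one, and HOXB3 and HOXB4 in T47D overlap.

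In PC3, 2 of 30 members were upregulated (6.67%, against 16.6% of all genes) and 3 were downregulated (10.0%, against 15.7%). The upregulated genes were of paralog group 13. HOXC13, the leading HOXC gene (chr12:54332615-54340328), was at 20.2, 21.1 and 20.9 CPM in normoxia and 49.1, 34.3 and 30.7 CPM in hypoxia (log2 fold change 0.82 ± 0.16 (SE), edgeR adjusted p = 0.00628). Its lowest hypoxic library was well above the highest normoxic one. HOXA13 went from 14.2, 12.9 and 13.4 CPM to 21.3, 16.3 and 19.4 CPM (log2 fold change 0.45 ± 0.13 (SE), edgeR adjusted p = 0.0278), likewise without overlap. The third tested gene of this group, HOXB13, was at 77.3, 77.2 and 70.6 CPM and 127, 94.4 and 83.5 CPM, with no overlap and an edgeR adjusted p of 0.0609. It passed with DESeq2 (0.0358), no count filter (0.0417), the replicate block (0.0384) and without hypoxia replicate 3 (0.0312), but not with GC content and length correction (0.274) or without any other single library.

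The downregulated genes in PC3 were HOXA9, HOXB2 and HOXB3. HOXA9 was at 49.997, 45.2 and 50.6 CPM and 44.4, 36.6 and 36.7 CPM (log2 fold change -0.36 ± 0.11 (SE), edgeR adjusted p = 0.0338). HOXB2 was low, at 0.580, 0.792 and 1.16 CPM and 0.281, 0.305 and 0.319 CPM (log2 fold change -1.54 ± 0.41 (SE), edgeR adjusted p = 0.0190). HOXB3, an anterior gene of hindbrain and pharynx, was at 8.82, 7.33 and 10.2 CPM and 5.83, 5.99 and 6.63 CPM (log2 fold change -0.56 ± 0.17 (SE), edgeR adjusted p = 0.0279). For all 3, each hypoxic library was lower than each normoxic one. In PC3 the HOXB sum rose from 138, 134 and 129 CPM to 175, 151 and 144 CPM. Most of this sum in each library was HOXB13, which was not called (edgeR adjusted p = 0.0609). Of the 9 HOXB members tested, 6 had a negative log2 fold change, 0 were called upregulated and 2 were called downregulated. The HOXC sum rose from 46.2, 50.3 and 45.8 CPM to 75.9, 64.3 and 62.3 CPM.

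The states did not overlap for 11 of 30 members (36.7%), against 50.6% of all genes. The HOXC13 call held in each alternative run, whereas HOXA9, HOXA13, HOXB2 and HOXB3 were each lost without 4 of the 6 libraries (edgeR adjusted p up to 0.133, 0.0980, 0.0660 and 0.0918). Downregulated calls numbered 0 without hypoxia replicate 2, 1 without hypoxia replicate 1 or 3 or normoxia replicate 1 or 3 and 5 without normoxia replicate 2, and upregulated calls 1 without replicate 1 of either state. In 1 fit of all 24 libraries HOXA9, HOXA13 and HOXB3 were not called, and HOXA9 was also lost with a correction for GC content and length.

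In T47D, 0 of 23 members were upregulated (against 6.55% of all genes) and 3 were downregulated (13.04%, against 6.69%). DESeq2 also called 0 upregulated, and 7 of the 23 members had an unadjusted p below 0.05 in either direction. The share of all genes at that unadjusted threshold was not counted, so the 7 members are not set against a background. The downregulated genes were HOXB2, HOXB3 and HOXB4, neighbors at the anterior end of HOXB. HOXB2 was at 54.4, 76.0 and 64.0 CPM in normoxia and 34.7, 40.7 and 49.4 CPM in hypoxia (log2 fold change -0.72 ± 0.21 (SE), edgeR adjusted p = 0.0420). HOXB3 was at 27.0, 43.9 and 17.8 CPM and 14.49, 18.2 and 14.6 CPM (log2 fold change -0.999 ± 0.29 (SE), edgeR adjusted p = 0.0403). HOXB4 was at 1.90, 2.85 and 0.685 CPM and 0.324, 0.872 and 0.183 CPM (log2 fold change -2.07 ± 0.63 (SE), edgeR adjusted p = 0.0463). The states were apart for HOXB2 but overlapped for HOXB3 and HOXB4. These values come from a fit that did not pair replicate numbers. With the replicate block the edgeR adjusted p was 0.0243 for HOXB2, 0.0204 for HOXB3 and 0.00636 for HOXB4.

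The T47D HOXB sum fell from 98.4, 142 and 99.8 CPM to 62.1, 72.0 and 79.0 CPM, and 7 of the 8 HOXB members tested had a negative log2 fold change. The exception was HOXB9, at 0.209, 0.508 and 0.701 CPM and 1.23, 0.965 and 1.01 CPM, which did not pass (edgeR adjusted p = 0.157). HOXC10 was at 116.4, 140.5 and 158 CPM and 178, 194 and 181 CPM, with no overlap. Its log2 fold change of 0.34 did not pass (edgeR adjusted p = 0.264), and 2 standard errors either side of it spanned -0.06 to 0.73. The states did not overlap for 6 of 23 members (26.1%), against 32.3% of all genes. Without hypoxia replicate 1, normoxia replicate 1 or normoxia replicate 2, 0 members were called downregulated, and without normoxia replicate 3 there were 5. Scaling to total counts, which moved the median of all genes by -0.11 in T47D and -0.12 in A549 on the log2 scale, ended the HOXB4 call, as did a correction for GC content and length, and HOXB2 was lost in 1 fit of all 24 libraries. In that fit HOXB9 was called upregulated (log2 fold change 1.12 ± 0.27 (SE), edgeR adjusted p = 0.00466) and HOXC8 downregulated (edgeR adjusted p = 0.0358, against 0.103 in the fit of T47D alone and 0.0474 with DESeq2).

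By cluster, HOXB held 11 of the 23 calls: 1 of 9 members tested in A549, 5 of 9 in HCT-116, 2 of 9 in PC3 and 3 of 8 in T47D. Of all genes, 35.5%, 50.3%, 32.3% and 13.2% were called in either direction in these lines, so the 5 of 9 in HCT-116 was close to the background. HOXA held 1 of 11, 4 of 11, 2 of 11 and 0 of 6 in the same order, and HOXD 3 of 7, 1 of 2, 0 of 2 and none tested. HOXC held 0 of 8, 0 of 8, 1 of 8 and 0 of 9, although T47D expressed this cluster most. Some uncalled members had narrow intervals. For HOXA11 in PC3, a posterior gene of forearm and kidney, 2 standard errors either side of the log2 fold change spanned -0.16 to 0.20, for HOXA10 in PC3 -0.24 to 0.19 and for HOXB9 in PC3 -0.17 to 0.29. HOXB7 in A549, the leading HOX gene of that line, gave -0.36 to 0.10. Wider intervals stood for low members, such as -1.29 to 0.83 for HOXC11 in HCT-116, where smaller changes were not detectable at this depth.

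Across lines, 4 members were called in the same direction in more than 1 line: HOXA9 downregulated in A549, HCT-116 and PC3, HOXA13 upregulated in HCT-116 and PC3, and HOXB2 and HOXB3 downregulated in PC3 and T47D. The share of all genes called the same way in more than 1 line was not counted, so this recurrence is a description. The HOXA9 call in A549 rests on few counts, with 12, 2 and 2 in hypoxia. HOXA13 in A549 was at 5.29, 4.44 and 4.73 CPM and 6.80, 6.30 and 6.25 CPM, without overlap but with an edgeR adjusted p of 0.0722. HOXB2 in A549 was at 2.045, 1.65 and 1.25 CPM and 0.911, 1.14 and 0.442 CPM, again without overlap (edgeR adjusted p = 0.0630). HOXB2 in A549 was below the threshold with DESeq2 (0.0420), scaling to total counts (0.0470), no count filter (0.0491), a mean count of at least 50 (0.0483) and the replicate block (0.0269), and above it without any 1 of the 6 libraries (edgeR adjusted p of 0.0516 to 0.1996). HOXA13 in A549 passed in 1 alternative, the block with GC content and length correction (0.0436).

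Whether the hypoxia effect differed between lines was tested with the interaction of line and oxygen state over all 24 libraries. It passed for 5 of 36 members (13.9%, against 18.3% of all genes). HOXB9 had the smallest edgeR adjusted p (0.00946), with a large rise in HCT-116 and next to none in PC3. HOXB4 (0.0160) and HOXB8 (0.0342) rose in HCT-116 and fell in T47D and A549, respectively. HOXC13 (0.0240) rose in PC3 and had a negative log2 fold change in A549. HOXA9 (0.0249) fell to different extents, and it was at 0 in all 6 T47D libraries, which give no effect. Of the HOXD genes upregulated in A549, none passed this test over all lines: the edgeR adjusted p was 0.0610 for HOXD1, 0.337 for HOXD11 and 0.542 for HOXD10, and the latter 2 were at 0 or near 0 outside A549.

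Without replicate 2 of every group 0 members passed (3 at an unadjusted p below 0.05; DESeq2 on all libraries called 5), and without replicate 1 there were 2. The share of all genes passing fell as well, to 1.02% and 3.94%. Without replicate 3 there were 4 (15.3% of all genes). Only HOXB9 and HOXA9 passed without replicate 1, and HOXC13 and HOXB8 were lost whichever replicate was left out. Without the T47D libraries, 7 of 35 members passed, against 25.4% of all genes, and these included HOXD1 (edgeR adjusted p = 0.0296). Its log2 fold changes in the 24-library fit were 1.92 ± 0.68 (SE) in A549 and -2.99 ± 1.24 (SE) in HCT-116. The HCT-116 value rests on very few counts, 1, 1 and 11 in normoxia and 1, 0 and 0 in hypoxia. In the fit of HCT-116 alone, HOXD1 had too few counts to be tested.

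Genes that act with or on HOX genes were examined from lists. Of 11 TALE homeodomain genes (the PBX, MEIS, PKNOX and TGIF cofactors), MEIS3 was upregulated in A549, HCT-116 and PC3. In HCT-116, 4 of 9 tested rose and 1 (TGIF1) fell, while in T47D 0 of 10 were called. The shares of all genes were 23.3% up and 27.0% down in HCT-116 and 13.2% either way in T47D. MEIS3 log2 fold changes were 0.71 ± 0.109 in A549, 1.15 ± 0.239 in HCT-116 and 0.99 ± 0.2995 in PC3. Of 14 activators of HOX transcription, RARA, the retinoic acid receptor alpha, was upregulated in the same 3 lines, with log2 fold changes of 0.83 ± 0.134, 1.15 ± 0.277 and 0.56 ± 0.114. DPY30, a subunit of the MLL complexes, was downregulated in the same lines, by 0.44 ± 0.117, 1.97 ± 0.297 and 0.54 ± 0.181 on the log2 scale. In T47D its log2 fold change was -0.86 ± 0.288, which did not pass (edgeR adjusted p = 0.0647). MLL itself (KMT2A) rose in HCT-116 and PC3, as did the demethylase KDM6B. In HCT-116, 8 of 11 activators tested rose, against 23.3% of all genes, among them CDX2, an intestinal regulator of HOX genes, from 11.8 ± 1.58 to 20.02 ± 2.69 CPM.

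Of 27 Polycomb genes, 26 were tested in each line. In A549 1 rose and 7 fell, in HCT-116 8 rose and 7 fell, in PC3 3 rose and 5 fell, and in T47D 1 rose and 1 fell. All genes gave 17.6% up and 17.8% down in A549, 23.3% and 27.0% in HCT-116, 16.6% and 15.7% in PC3 and 6.55% and 6.69% in T47D, so the 7 of 26 that fell in HCT-116 matched the background. EZH2, the Polycomb methyltransferase, fell by 0.62 ± 0.111, 0.62 ± 0.187 and 0.53 ± 0.0917 on the log2 scale in A549, HCT-116 and PC3. BMI1 and EZH1 fell in the same 3 lines, and PCGF6 fell in all 4. Whether these levels bear on HOX transcription was not tested.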

How the data were processed

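Polyadenylated RNA of A549, HCT-116, PC3 and T47D cells in normoxia and hypoxia was sequenced by the authors after a directional library kit. The deposited counts are whole, unnormalized read counts per gene symbol, 1 file per library. Per the submitters' processing notes, the tools were Trim Galore 0.3.3, HISAT2 2.05, Picard 2.0.1 and HTSeq 0.5.4p3 on GRCh37, with DESeq2 named for differential expression. The strand setting of the counting is not given in the sources used here.

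Groups came from the sample labels. Counts were fitted per line across all genes with edgeR 4.0.16 in R 4.3.3 (filterByExpr, TMM, quasi-likelihood test, Benjamini-Hochberg adjustment), and scripts were tested on simulated data. Interactions used all 24 libraries, and identity tests the 12 libraries of 1 oxygen state. Totals of 22698584 to 62850747 counts set the precision. The members and gene lists were chosen with earlier results of these data known. Named in full were members called in at least 1 line, the member of each expressed cluster with the highest level per length, and those with the smallest interaction p. Alternatives were DESeq2 1.42.0, other scalings, count filters and thresholds, left-out libraries, a replicate block, 1 fit of all libraries, and splines on GC content and length (5 degrees of freedom), for which 93.4% of symbols had values. Gene positions and lengths came from GENCODE on GRCh37, promoters from RefSeq on GRCh38.p14.

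Samples with the same replicate number deviated together in T47D (correlations over genes of 0.154, 0.325 and 0.303 for replicates 1, 2 and 3, all above 0.1). The numbers were therefore taken to pair these libraries, from the data alone. The main fits, per line and for the interaction, did not use this pairing. It entered only the alternative runs with a replicate block. The cluster sums, expressed-gene counts and groupings by paralog are descriptions with no test. A few genes are counted in the totals but not reported here by name, in the text or in the figures.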

Additional observations from a re-analysis of the deposited data

Results flagged for a closer look

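The hypoxia effect differed between lines, by the edgeR interaction test adjusted over all genes, for 5 members. The fold changes here are log2 values from 1 fit of all 24 libraries.

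HOXB9 (adjusted p = 0.00946) had effects of 1.35 ± 0.21 (SE) in HCT-116, 1.12 ± 0.27 in T47D, 0.22 ± 0.21 in A549 and 0.11 ± 0.21 in PC3. HOXB4 (adjusted p = 0.0160) had 0.76 ± 0.40 in HCT-116 against -1.10 ± 0.64 in A549, -1.43 ± 0.61 in PC3 and -1.95 ± 0.48 in T47D, so that HCT-116 alone had a positive value. HOXC13 (adjusted p = 0.0240) had 0.87 ± 0.18 in PC3, 0.62 ± 0.19 in HCT-116, 0.34 ± 0.18 in T47D and -0.19 ± 0.18 in A549. HOXA9 (adjusted p = 0.0249) had -2.06 ± 0.41 in A549, -1.25 ± 0.20 in HCT-116 and -0.31 ± 0.20 in PC3, and no estimate in T47D, where it was at 0 counts. HOXB8 (adjusted p = 0.0342) had 0.95 ± 0.30 in HCT-116, 0.12 ± 0.43 in PC3, -0.59 ± 0.44 in T47D and -0.65 ± 0.30 in A549.

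Without the T47D libraries all 5 still passed, with adjusted p of 0.00274 for HOXB9, 0.00724 for HOXA9, 0.00730 for HOXB8, 0.00889 for HOXB4 and 0.0109 for HOXC13 (edgeR). Leaving out a replicate number from every group ended most of these calls. Without replicate 1, HOXB4 (0.156), HOXC13 (0.193) and HOXB8 (0.0985) no longer passed, and HOXB9 (0.0218) and HOXA9 (0.0433) did. Without replicate 2 none of the 5 passed (edgeR adjusted p of 0.0606 for HOXB4 to 0.425 for HOXA9). Without replicate 3, HOXC13 (0.0835), HOXB8 (0.0690) and HOXA9 (0.0503) no longer passed, and HOXB9 (0.0223) and HOXB4 (0.0338) did. HOXC13 and HOXB8 were thus lost in all 3 runs.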

How the results depend on the processing

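No called member changed direction under any alternative run. Counts of called members moved by over 1.5 times as follows. A single fit of all 24 libraries gave 1 up and 1 down in A549, 1 up and 1 down in PC3 and 1 up in T47D. DESeq2, scaling to total counts and no count filter each gave 4 down in A549. Scaling to total counts, no count filter, a mean count of at least 50 and a fold change above 1.5 each gave 3 down in HCT-116, and this fold change gave 1 up and 1 down in PC3. An adjusted p below 0.01 gave 0 down in A549, 3 up and 2 down in HCT-116, 1 up and 0 down in PC3 and 0 down in T47D. Leaving out 1 library gave 0 to 4 down in A549, 2 to 4 down in HCT-116, 1 to 2 up and 0 to 5 down in PC3 and 0 to 5 down in T47D. Leaving out 1 replicate number gave 0 to 4 members for the interaction. With the replicate block the counts were 4 up and 4 down in A549, 5 and 5 in HCT-116, 4 and 3 in PC3, 0 and 3 in T47D and 6 for the interaction. The block with a correction for GC content and length gave 5 up and 5 down in A549 and 5 down in T47D. Outside T47D, same-numbered libraries share only a number (correlations of 0.0707 to 0.288). Every library correlated best with its own number in PC3, but not in A549 or HCT-116, which is a hint from the data and not the design. Of the cluster sums, 6 moved by more than 1 SD, all under scaling to total counts, and 122 did not. Members below about 1 CPM rest on few counts, so small changes in them were not detectable at this depth.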

Other observations

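Sorting the tested members by paralog group was done after their values were seen, so it is a description with no test, and the same gene counts once per line. Of 19 gene-by-line values in groups 1 to 3, 16 were negative, with a median log2 fold change of -0.33. Groups 4 to 8 gave 36 negative values of 58, with a median of -0.26. Groups 9 to 13 gave 26 positive values of 41, with a median of 0.12. By line, the groups 9 to 13 had medians of 0.09 in A549, 0.11 in HCT-116, 0.17 in PC3 and 0.24 in T47D, and groups 1 to 3 had -0.26, -0.33, -0.56 and -0.72. Some calls ran the other way, since HOXA9 and HOXA10 fell and HOXD1 rose.

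Noncoding genes of the clusters were listed as 10 symbols in the files, of which 6 microRNA symbols were at 0 in each library. HOTAIRM1, a noncoding gene of the anterior end of HOXA, was downregulated in HCT-116 (6.59 ± 2.79 to 1.198 ± 0.571 CPM, log2 fold change -2.58 ± 0.40 (SE), edgeR adjusted p = 2.77e-04) and PC3 (6.05 ± 1.08 to 3.97 ± 0.485 CPM, log2 fold change -0.66 ± 0.19 (SE), edgeR adjusted p = 0.0285), and was at 0 in T47D. HOTAIR, between HOXC11 and HOXC12, was at 23.99 ± 5.86 CPM in normoxic T47D and below 3 CPM in the other lines. HOTTIP and HOXA11-AS reached 3.4997 ± 1.24 and 6.98 ± 0.562 CPM in normoxic PC3. Of the tested noncoding genes in A549 (3), HCT-116 (3), PC3 (4) and T47D (1), only HOTAIRM1 was called.

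Of 21 genes that flank the clusters, 3 rose and 3 fell of 17 tested in A549, 5 and 4 of 18 in HCT-116, 4 and 1 of 18 in PC3 and 2 and 0 of 17 in T47D. All genes gave 17.6% up and 17.8% down in A549, 23.3% and 27.0% in HCT-116, 16.6% and 15.7% in PC3 and 6.55% and 6.69% in T47D, so the A549 counts matched the background. MTX2, beyond the HOXD1 end of HOXD, fell by 0.48 ± 0.11 in A549, 0.49 ± 0.17 in HCT-116 and 0.48 ± 0.08 in PC3 on the log2 scale, while KIAA1715 (LNPK), at the other end, had values of 0.36 ± 0.11 in A549 and 0.30 ± 0.09 in PC3 and was called upregulated in both. These differences were smaller than those of HOXD1, HOXD10 and HOXD11 in A549.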
